A study of Homo sapiens with 4 samples.

Results

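UDP-glucuronosyltransferases are the enzymes that attach glucuronic acid to bilirubin, steroids, bile acids and foreign compounds so that these can leave the body in bile and urine. The genes described here are 5 of the UGT1A cluster (UGT1A1, UGT1A3, UGT1A4, UGT1A6 and UGT1A9) and 5 of the UGT2B cluster (UGT2B4, UGT2B7, UGT2B10, UGT2B11 and UGT2B15), chosen by gene symbol. All 10 had a row among the 30863 genes of the deposited table. They were compared between wild-type HepG2 cells given the solvent DMSO and wild-type HepG2 cells given AMF (amentoflavone, a plant biflavonoid), both for 48 h, with 2 libraries of poly(A)-selected RNA in each group. HepG2 is an established human liver cancer line that the labels describe as hepatoblastoma, and all 4 libraries come from this single line. The treatment protocol states AMF at 90 µM, but the series' design text states Tub B at 80 µM, so that compound and dose are uncertain, and AMF here means the libraries labelled so.

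The UGT proteins sit in the membrane of the endoplasmic reticulum and take their sugar from UDP-glucuronic acid. The UGT1A genes are alternative first exons, each with its own promoter, that are spliced to a common set of later exons, so the first exon decides which substrates the enzyme binds and the common exons encode the part that holds the sugar donor. Each UGT2B gene, in contrast, is a complete gene of its own. In liver, UGT1A1 is the enzyme that conjugates bilirubin, and UGT genes are known as targets of the aryl hydrocarbon receptor (AHR), the oxidative stress factor NRF2, the nuclear receptors PXR and CAR and the liver factor HNF4A.

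Each library held 24226586 to 26966210 reads counted in genes, and mitochondrially encoded genes took 7.69% to 7.73% of them in DMSO and 9.53% to 9.61% in AMF. The hepatocyte markers ALB, APOA1, APOB, TF, TTR, SERPINA1, AFP, FGB and HNF4A were present in all 4 libraries, with a summed level of 497778 and 515529 normalized counts in DMSO and 368072 and 387846 in AMF. Of these 9 markers 1, HNF4A, was higher in AMF, 6 were lower and 2, ALB and FGB, did not pass. Over all genes tested, 15.6% were higher and 16.2% lower. In bulk RNA, fewer cells of a type and less RNA per cell cannot be told apart. All 4 libraries are from the HepG2 line, and the presence of other cell types was not tested. The endothelial markers PECAM1, VWF, CDH5 and KDR summed to 159 and 188 in DMSO and 292 and 319 in AMF. PECAM1 alone had 145 and 185 in DMSO and 277 and 289 in AMF and was higher. VWF, with 8 and 1 reads in DMSO and 26 and 11 in AMF, was also higher. CDH5 did not pass, and KDR had 1 read at most. The fibroblast markers COL1A1, COL1A2, COL3A1 and PDGFRB summed to 195 and 211 in DMSO and 23.7 and 32.5 in AMF, with COL1A2 and COL3A1 at 1 read at most. Among leukocyte markers CD3E and CD68 had 0 reads in DMSO and 2 or 3 in each AMF library. The lysozyme gene LYZ had 24899 ± 433 normalized counts in DMSO and 17916 ± 669 in AMF, and PTPRC had no row. The part of these shifts in the UGT results was not tested. The labels do not say whether the 2 libraries of a group came from separate cultures, and the p-values thus rest on a spread that may be purely technical. Values are normalized counts (reads divided by a size factor per library, so that 1 read is worth 0.929 to 1.03), means are given ± SD with n = 2, and changes are log2 differences of AMF minus DMSO on the log2(normalized count + 1) scale. A change passed when its limma p-value, adjusted over all 23828 genes tested, was below 0.05.

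The stretches of promoter below are shown because they precede the transcripts whose values follow, and because the near-identical UGT1A3 and UGT1A4 stretches differ in a motif. They run 5′ to 3′ from 250 to 41 bases before the RefSeq start of each gene in the build GRCh38.p14, and capitals mark matches on either strand to any of 4 motifs. These were GCGTG (core of the element bound by AHR), TGACNNNGC (core of the element bound by NRF2), AGGTCA (nuclear receptor half-site) and CACGTG (E-box).
UGT1A1 (chr2:233760020-233760229, plus strand): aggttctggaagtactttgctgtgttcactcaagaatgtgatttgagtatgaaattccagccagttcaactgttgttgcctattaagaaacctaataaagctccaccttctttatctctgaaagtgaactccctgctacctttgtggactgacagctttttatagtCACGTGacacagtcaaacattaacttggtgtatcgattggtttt
UGT1A3 (chr2:233728792-233729001, plus strand): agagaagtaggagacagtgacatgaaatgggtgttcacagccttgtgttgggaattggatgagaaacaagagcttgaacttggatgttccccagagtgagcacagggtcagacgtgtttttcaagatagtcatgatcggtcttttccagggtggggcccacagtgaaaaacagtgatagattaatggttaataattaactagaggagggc
UGT1A4 (chr2:233718486-233718695, plus strand): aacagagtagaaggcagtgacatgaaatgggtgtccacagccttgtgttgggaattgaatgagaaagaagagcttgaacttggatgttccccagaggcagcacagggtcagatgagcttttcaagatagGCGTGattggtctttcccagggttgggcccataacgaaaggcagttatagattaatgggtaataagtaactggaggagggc
UGT2B7 (chr4:69096224-69096433, plus strand): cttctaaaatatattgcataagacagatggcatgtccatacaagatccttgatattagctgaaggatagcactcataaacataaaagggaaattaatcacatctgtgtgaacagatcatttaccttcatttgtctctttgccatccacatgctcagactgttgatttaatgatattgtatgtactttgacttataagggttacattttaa
UGT2B10 (chr4:68815744-68815953, plus strand): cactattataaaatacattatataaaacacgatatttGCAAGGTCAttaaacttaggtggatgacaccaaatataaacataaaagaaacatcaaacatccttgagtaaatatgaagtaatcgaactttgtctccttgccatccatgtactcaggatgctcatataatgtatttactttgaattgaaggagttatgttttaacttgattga
UGT2B11 (chr4:69214789-69214998, minus strand): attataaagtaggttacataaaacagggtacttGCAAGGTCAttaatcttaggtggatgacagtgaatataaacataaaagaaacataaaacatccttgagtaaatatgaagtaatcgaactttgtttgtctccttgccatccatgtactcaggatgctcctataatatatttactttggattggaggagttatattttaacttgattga

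In the UGT1A1 stretch the capitals are CACGTG at 84 bases before the start, a motif that 7.26% of 35116 human promoter windows of 300 bases held. UGT1A4, whose 300-base window was 87.7% identical to that of UGT1A3, had GCGTG at 121 bases before the start, a motif found in 36.5% of all windows. The UGT1A3 stretch shown held no match. In UGT2B10 and UGT2B11 the capitals are TGACNNNGC on the other strand (13.3% of all windows) and AGGTCA (13.8%), which overlap there. These 2 windows were 90.1% identical to each other, whereas UGT2B7, with no match to any of the 4 motifs, was 61.5% identical to UGT2B10. Among the windows not printed, UGT1A9 had GCGTG at 65 bases before the start, UGT1A6 had GCGTG in 1 of its 2 windows and TGACNNNGC in the other, and UGT2B15 had AGGTCA at 217 and 143 bases before the start. UGT1A3 and UGT1A4 each held a further GCGTG within the 50 bases from the start on. RefSeq windows were matched for 9 of the 10 genes, with UGT2B4 the exception. A match is a run of letters and no evidence of binding, and the enhancer of UGT1A1 known to answer to phenobarbital lies further upstream than these windows.

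A further sequence shows what the UGT1A transcripts have in common, and so why their reads are hard to divide. It is the second exon, 132 bases long, which all 9 protein-coding UGT1A genes of the GENCODE annotation use at the same position.
UGT1A second exon (GRCh38 chr2:233767034-233767165, plus strand): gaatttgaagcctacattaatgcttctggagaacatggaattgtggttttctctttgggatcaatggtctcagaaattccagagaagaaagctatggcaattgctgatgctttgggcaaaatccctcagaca
The first exons of the 5 UGT1A genes were 886 to 1000 bases long and the common exons 1478 or 1479 bases. A read that lies wholly in the common exons belongs to no single UGT1A gene by its sequence. UGT1A4 and UGT1A9 had 0 reads in both DMSO libraries while UGT1A1 had 122 and 108, so reads of the common exons were not given to every UGT1A gene in these counts. Whether the count of any single UGT1A gene includes them is not given in the sources used here. Of the 100-base windows in the first exon, 0% were shared with another UGT gene for UGT1A1 and UGT1A6, 40.3% for UGT1A3, 3.70% for UGT1A4 and 4.65% for UGT1A9. With windows of 50 bases the shares were 0% for UGT1A1 and UGT1A6, 46.6% for UGT1A3, 19.4% for UGT1A4 and 18.0% for UGT1A9. The shares thus depend on the window length, which was not set from the length of the reads. UGT1A3 and UGT1A4 first exons were 90.7% identical.

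Among the UGT1A genes, the bilirubin enzyme UGT1A1 and the bile acid enzyme UGT1A3 were many times higher in AMF, and UGT1A4 and UGT1A9 had reads in the AMF libraries alone. UGT1A1 stood at 122 and 111 normalized counts in DMSO replicates 1 and 2 and at 1297 and 1337 in AMF replicates 1 and 2. Each pair lay close together and the groups were far apart, with a log2 change of 3.49 (SE 0.095, 95% interval 3.29 to 3.69, limma adjusted p = 5.47e-12). By reads the ratio was 11.3, with an exact 95% interval for counting error of 9.87 to 13.0. The change of UGT1A1 had rank 93 from the top among the 23828 genes. UGT1A3, which conjugates bile acids and vitamin D metabolites, had 34.0 and 19.5 in DMSO and 202 and 150.4 in AMF. Both groups were spread more widely than those of UGT1A1 and did not overlap. UGT1A3 rose by 2.71 on the log2 scale (SE 0.265, interval 2.14 to 3.28, adjusted p = 1.99e-06), with a read ratio of 6.62 (4.95 to 9.01). The ratio of UGT1A1 to UGT1A3 was 3.59 and 5.68 in DMSO and 6.41 and 8.89 in AMF, which are separate ranges, though the DMSO values differed more from each other than the nearest DMSO and AMF values.

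UGT1A4 and UGT1A9 were scarce in every library. UGT1A4, which attaches glucuronic acid to amines such as lamotrigine, had 0 and 0 reads in DMSO and 10 and 8 in AMF. UGT1A9, an enzyme of phenols such as propofol, had 0 and 0 in DMSO and 13 and 9 in AMF. Set against a chosen floor of 3 reads in place of the DMSO total of 0, the AMF level was 5.79 times as high for UGT1A4 and 7.07 times for UGT1A9. The lower exact 95% limits of the read ratios, which take in counting error of both groups, were 4.24 and 5.28. Both genes passed the test (adjusted p = 0.00392 and 0.00195), but both also passed the filter on low values only through their AMF reads. With voom on the reads both lost the call when any 1 library was left out, with an adjusted p of 0.0951 to 0.157 for UGT1A4 and 0.0847 to 0.123 for UGT1A9. UGT1A6, an enzyme of small planar phenols and serotonin, had 11.0 and 22.6 in DMSO and 28.8 and 41.2 in AMF. Its groups did not overlap, yet its DMSO values lay far apart, and the change of 1.08 (SE 0.399, interval 0.22 to 1.93) had an adjusted p of 0.0542. UGT1A6 passed with the replicate number as a block (adjusted p = 0.0202), with library totals as scaling (0.0455), with voom on the reads (0.0362) and when the filter asked for a mean of 10 (0.0275), so its call depends on the fit. Exons of UGT1A6 overlap those of a pair of genes on the opposite strand, and strand was not kept.

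The UGT2B genes did not move together. UGT2B7, which conjugates morphine, other opioids and fatty acids, was higher in AMF, UGT2B4 was lower, and UGT2B10 was slightly lower. UGT2B7 had 632 and 647 in DMSO and 1017 and 1103 in AMF. These tight groups gave a change of 0.73 (SE 0.0728, interval 0.57 to 0.88, adjusted p = 2.54e-06) and a read ratio of 1.65 (1.54 to 1.78). UGT2B4, an enzyme of bile acids and catechol estrogens, had 309 and 319 in DMSO and 123 and 80.4 in AMF. Both AMF libraries were far below both DMSO libraries and differed from each other by more than the DMSO pair did. UGT2B4 fell by 1.65 on the log2 scale (SE 0.173, adjusted p = 3.96e-06), with a read ratio of 0.327 (0.278 to 0.383), and its change had rank 349 from the bottom of all genes tested.

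UGT2B10, which conjugates nicotine and its product cotinine, had 899.7 and 909 in DMSO and 737 and 755 in AMF. The difference was small against the other changes but larger than the gap within either pair, at -0.28 (SE 0.0694, interval -0.43 to -0.13, adjusted p = 0.00649). UGT2B11, whose substrates are less well described, had 56.0 and 26.7 in DMSO and 59.4 and 53.6 in AMF. The groups overlapped, and the change of 0.53 (SE 0.317, interval -0.15 to 1.21) did not pass (adjusted p = 0.234). UGT2B15, an androgen enzyme, had 1 read in DMSO replicate 1 and 0 in the other libraries and was not tested. UGT2B4 and UGT2B7 had 0% of their 100-base windows in common with another UGT gene, UGT2B10 had 6.61%, UGT2B11 9.30% and UGT2B15 12.7%. With 50-base windows these shares were 3.12% for UGT2B4, 6.75% for UGT2B7, 31.67% for UGT2B10, 40.85% for UGT2B11 and 27.47% for UGT2B15. An exon of UGT2B11 overlaps a gene on the opposite strand.

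**Figure D1:**
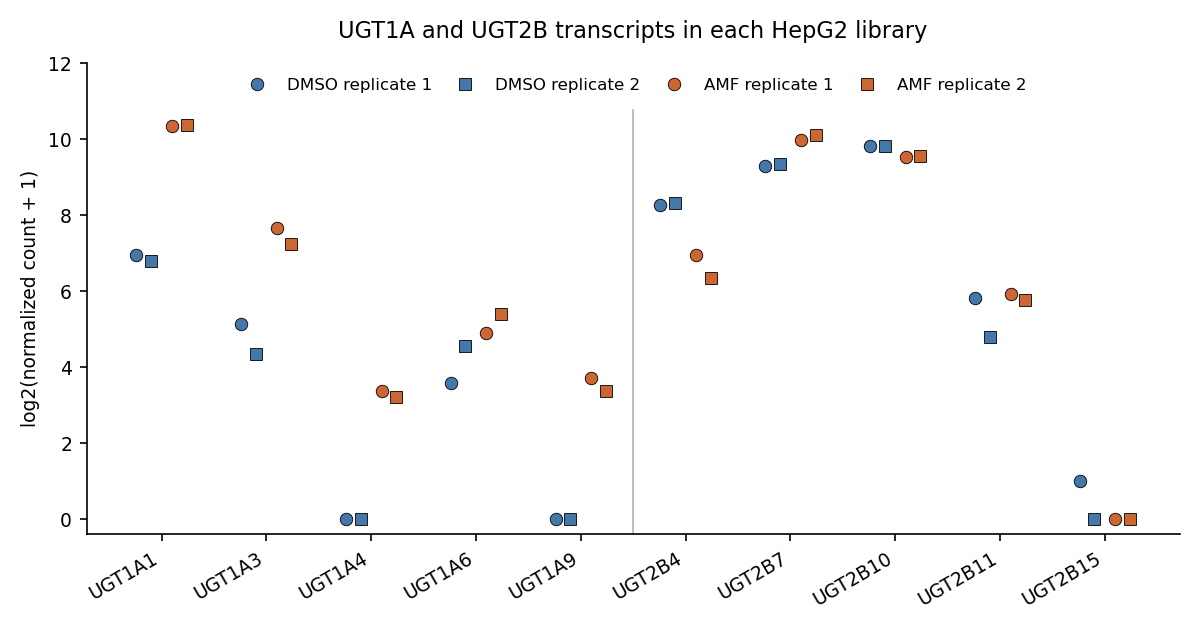
Level of each of the 10 UGT genes in each library, as log2(normalized count + 1) on the vertical axis, with circles for replicate 1 and squares for replicate 2 and with UGT1A genes left and UGT2B genes right of the line. UGT1A1 and UGT1A3 in AMF lie far above DMSO, UGT1A4 and UGT1A9 leave 0 in AMF alone, UGT2B4 is lower in AMF, and the groups of UGT2B11 overlap.

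Of the 10 genes, 9 were tested, of which 5 were higher, 2 lower and 2 did not pass. Over all 23828 genes tested, 15.6% were higher and 16.2% lower, and 31.8% passed in either direction, so a call as such was common in these libraries. The median log2 change of all genes tested was 0.04, with quartiles at -0.31 and 0.48. UGT2B10 lay inside these quartiles, whereas UGT1A1, UGT1A3, UGT2B4 and UGT2B7 lay outside them. UGT1A4 and UGT1A9 are among the 5 and could only have been higher, given the filter. Calls of single genes depended on the libraries kept. Without AMF replicate 1 or AMF replicate 2, limma-trend called 0 of the 10 genes and 0 of all genes, when 7 of the 10 and 6575 and 6387 of all genes had an unadjusted p under 0.05. Without AMF replicate 1, voom on the reads still called UGT1A1, UGT2B4 and UGT2B7, and without AMF replicate 2 also UGT1A3. With limma-trend, UGT2B4 did not pass without DMSO replicate 1 or 2 (adjusted p = 0.0588 and 0.0629), nor did UGT2B10 (0.0686 and 0.0753), nor UGT1A4 without DMSO replicate 2 (0.0503). Voom kept the calls of UGT2B4 (changes of -1.67 and -1.62) and UGT2B10 (-0.28 and -0.27) without those libraries. Its fits there treated the spread as known. UGT2B11 passed in 1 setting, with voom without DMSO replicate 1 (1.07, adjusted p = 0.035).

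**Figure D2:**
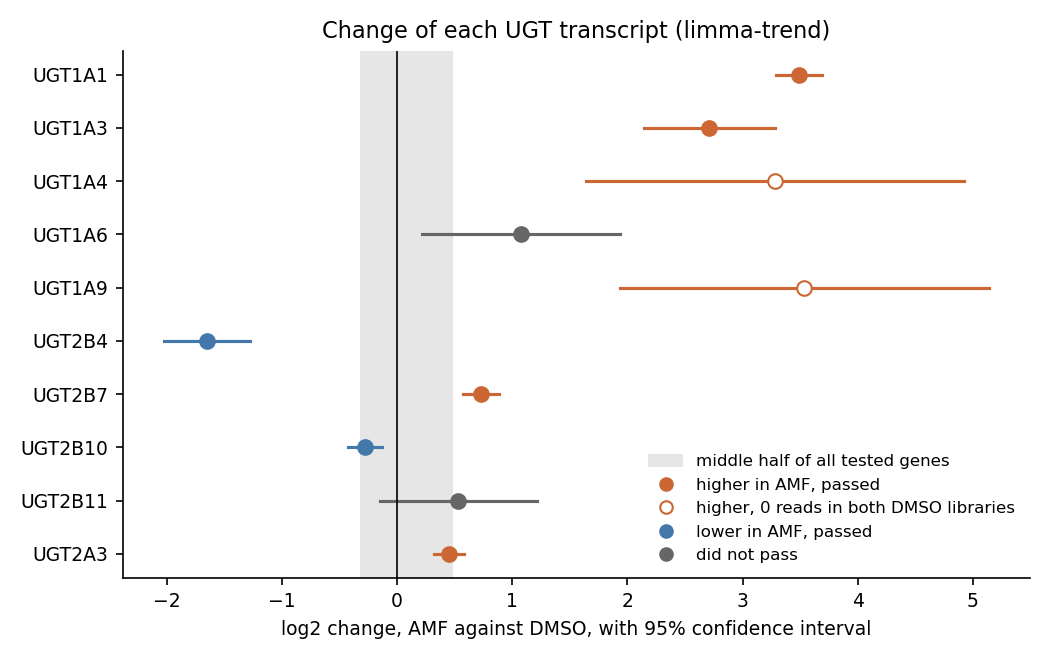
Log2 change of AMF against DMSO with its 95% confidence interval for the 9 tested UGT genes and for UGT2A3, with the grey band from -0.31 to 0.48 holding the middle of all genes tested between the quartiles. Open circles mark UGT1A4 and UGT1A9, which had 0 reads in both DMSO libraries, so that their fitted changes depend on the added count of 1.

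As a cluster, UGT1A was higher in AMF while UGT2B kept a similar sum and changed in makeup. The 8 UGT1A rows of the table, the pseudogene UGT1A2P included, summed to 167 and 153 in DMSO and 1557 and 1548 in AMF. The AMF mean was 9.71 times the DMSO mean. The 7 UGT2B rows summed to 1902 and 1902 in DMSO and 1938 and 1995 in AMF, a ratio of 1.03, and the gap between the 2 AMF libraries was larger than that from DMSO to the nearer of them. Within the UGT2B reads, UGT2B7 took 33.2% (exact 95% interval 31.1 to 35.4) and 34.0% (31.8 to 36.2) in DMSO and 52.5% (50.3 to 54.6) and 55.3% (53.0 to 57.5) in AMF. UGT2B10 went from the first to the second place in these read counts, with 47.3% (45.0 to 49.6) and 47.8% (45.5 to 50.1) in DMSO against 38.0% (36.0 to 40.2) and 37.8% (35.7 to 40.0) in AMF. UGT2B4 had 16.2% (14.6 to 18.0) and 16.8% (15.1 to 18.6) in DMSO and 6.32% (5.32 to 7.46) and 4.03% (3.20 to 5.00) in AMF. No interval of these 3 genes in a DMSO library met one in an AMF library, and these intervals cover counting error only.

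Within UGT1A, UGT1A1 held most reads in every library. Its share was 73.1% (65.7 to 79.6) and 72.5% (64.6 to 79.5) in DMSO and 83.3% (81.4 to 85.1) and 86.4% (84.5 to 88.1) in AMF. UGT1A3 took 20.4% (14.5 to 27.3) and 12.8% (7.86 to 19.2) in DMSO and 13.0% (11.4 to 14.7) and 9.71% (8.26 to 11.3) in AMF, ranges that overlap. The share of UGT1A6 was 6.59% (3.33 to 11.5) and 14.8% (9.49 to 21.5) in DMSO and 1.85% (1.26 to 2.61) and 2.66% (1.91 to 3.61) in AMF. Its AMF shares were lower although its own count was not, but the intervals of DMSO replicate 1 and AMF replicate 2 overlapped. Shares were not tested, since a share falls whenever another gene of the cluster rises.

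**Figure D3:**
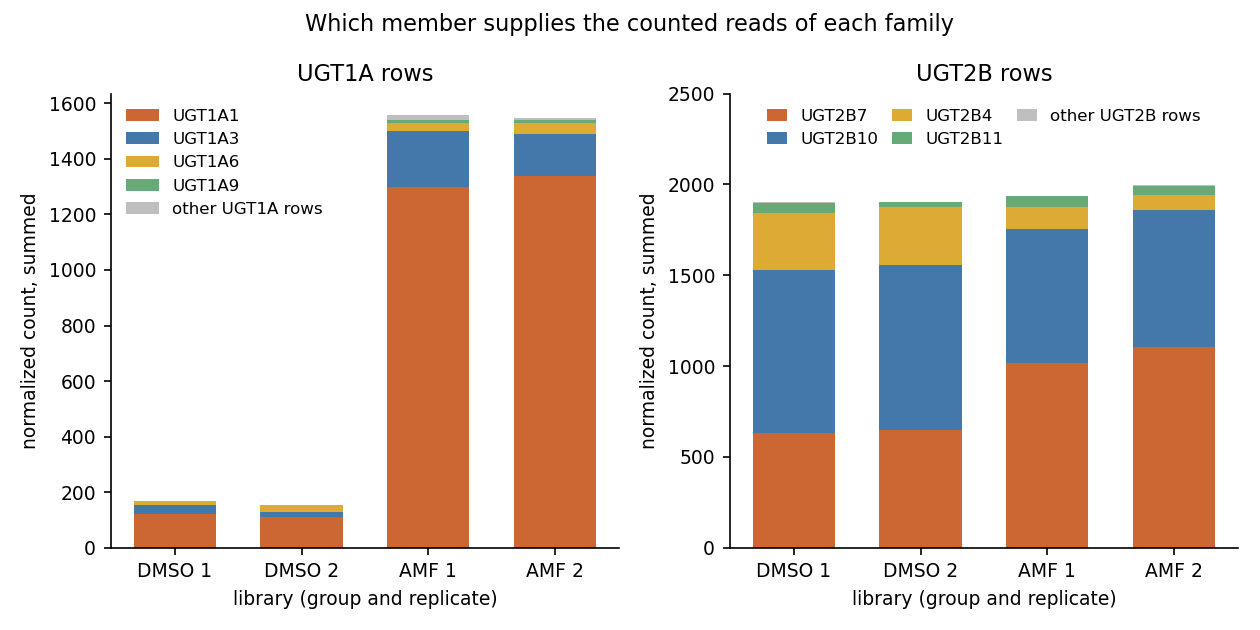
Summed normalized counts of the UGT1A rows (left) and UGT2B rows (right) in each library, stacked by gene, each on its own vertical axis from 0. The UGT1A bars stand at 153 and 167 in DMSO and at 1548 and 1557 in AMF, mostly as UGT1A1, whereas the UGT2B bars stay between 1902 and 1995 with more UGT2B7 and less UGT2B4 in AMF.

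Levels of different genes were compared only per kilobase, over the first exon for UGT1A and over the whole GENCODE reference transcript for the others. Stretches shared with other UGT genes were not taken out. In the first exon of UGT1A3 these made up 40.3% of the 100-base windows, against 0% for UGT1A1 and UGT1A6. In DMSO the order of normalized counts per kilobase was UGT2A3 (524 ± 37.7), UGT2B10 (468 ± 3.27), UGT2B7 (339 ± 5.63), UGT2B4 (149 ± 3.50) and UGT1A1 (129 ± 8.66). The first 5 differed from their neighbours in this order by more than the larger SD of the pair. Below them, UGT1A3 (30.2 ± 11.6), UGT2B11 (19.8 ± 9.92) and UGT1A6 (16.8 ± 8.20) came next and, in this order among themselves, differed by less than the larger SD, and UGT2B15 (0.241), UGT1A4 and UGT1A9 (both 0) were at or under 1 read. In AMF UGT1A1 led with 1457 ± 31.2, followed by UGT2A3 (714 ± 11.2), UGT2B7 (562 ± 32.4) and UGT2B10 (386 ± 6.53). The next were UGT1A3 (199 ± 41.5), UGT2B4 (48.3 ± 14.2), UGT1A6 (35.0 ± 8.78) and UGT2B11 (27.1 ± 1.99), and neighbours among the last 3 of these differed by less than the larger SD. UGT1A9 (11.4 ± 2.11) and UGT1A4 (9.63 ± 0.811) came at the end and did not differ beyond their spread either. The place of UGT1A1 depends on the length. Over its whole transcript it would have 48.9 ± 3.29 in DMSO, under UGT2B4. In AMF it would have 553 ± 11.9, beside UGT2B7 and under UGT2A3.

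The other UGT genes with a row had few reads, except UGT2A3. UGT2A3, a bile acid enzyme whose gene lies between UGT2B10 and UGT2B7 in the RefSeq gene order, had 1632 and 1474 in DMSO and 2094 and 2141 in AMF. It rose by 0.45 (SE 0.0614, adjusted p = 4.96e-05), with both AMF libraries above both DMSO libraries. This places 3 neighbours on chromosome 4 side by side with changes of -0.28, 0.45 and 0.73. UGT1A7 had 3 reads and UGT1A8 1 read, both in AMF replicate 1 alone, and UGT1A2P had 0 and 0 reads in DMSO and 4 and 2 in AMF (adjusted p = 0.124). UGT2B17 had 1 read in each DMSO library, UGT2A1 3 reads in each replicate 1 (adjusted p = 0.985), UGT2B28 2 to 4 reads in 3 libraries (adjusted p = 0.668) and the ceramide galactosyltransferase UGT8 5 to 9 reads (adjusted p = 0.861). UGT1A5, UGT1A10, UGT2A2, UGT3A1 and UGT3A2 had no row under these symbols and were not analysed.

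The genes whose 4-library profile came closest to that of UGT1A1 were sought by Euclidean distance on the log2 scale after centring on the DMSO mean, over the 11136 genes whose mean reached 100. They were MBL2 (distance 0.201), which encodes the mannose-binding lectin of complement, SLC37A2 (0.305), FAM65C (0.364) and SEC14L6 (0.387). MBL2 had 115 and 108 in DMSO and 1414 and 1342 in AMF. For UGT2B4 they were the hedgehog receptor PTCH1 (0.250), the homeobox gene HOXD1 (0.251), the adhesion molecule BCAM (0.262) and the pepsinogen gene PGC (0.277), with changes of -1.54, -1.80, -1.59 and -1.57. PTCH1 had 389.9 and 435 in DMSO and 159 and 125 in AMF.

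Genes that encode regulators of UGT transcription were split. Of 17 tested, 5 were higher, 6 lower and 6 did not pass, with a median log2 change of 0.04 beside 0.04 over all genes, of which 15.6% were higher and 16.2% lower. HNF4A, a liver nuclear receptor, rose from 7049 ± 6.24 to 12820 ± 355 (0.86, SE 0.0401, adjusted p = 1.10e-09), and NR1I2, which encodes PXR, from 438 ± 12.5 to 626 ± 5.86 (0.52, adjusted p = 1.92e-04). AHR rose from 1274 ± 115 to 1474 ± 28.7 (0.21, adjusted p = 0.0279). NFE2L2, the gene of NRF2, fell from 7116 ± 183 to 5832 ± 13.4 (-0.29, adjusted p = 9.74e-05). NR1I3, which encodes CAR, had 33.9 ± 2.94 in DMSO and 47.7 ± 8.33 in AMF and did not pass (0.47, adjusted p = 0.224). The largest changes on the list were those of CDX2, an intestinal homeobox factor (5.55), and the AHR repressor AHRR (4.56) upward and of the bile acid receptor gene NR1H4 (-1.03) and FOXA3 (-0.96) downward. AHRR had 1 read in each DMSO library and 51 and 44 in AMF. CDX2 had 1 and 2 reads in DMSO and 117 and 118 in AMF. Its list of intestinal markers had 2 genes higher (CDX2 and MUC2), 1 lower (VIL1) and 1 not passed (LCT). The list summed to 9714 and 11034 in DMSO and 9014 and 9418 in AMF. CDX1 and SI had no row under these symbols and were not analysed.

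All 10 genes of a list of AHR and NRF2 targets, chosen with earlier results of these data known, were higher, against 15.6% of all genes, with a median of 1.35 beside 0.04. CYP1A1 changed by 7.79, CYP1A2 by 10.70 and NQO1, a quinone reductase, by 1.11, from 16493 ± 20.4 in DMSO to 35691 ± 335 in AMF. CYP1A2 had 2 and 11 reads in DMSO, so the size of its change rests on few reads. CYP1B1, among the 10, had 3 and 0 reads in DMSO and 6 and 20 in AMF.

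Genes that supply or use UDP-glucuronic acid or cleave glucuronides moved both ways. Of 11 tested, 2 were higher, 4 lower and 5 did not pass, with a median of -0.05, against 15.6% higher, 16.2% lower and a median of 0.04 over all genes. UGDH, the dehydrogenase that makes UDP-glucuronic acid, rose from 13664 ± 823 to 18946 ± 178 (0.47, SE 0.043, adjusted p = 9.69e-07). GUSB, the lysosomal glucuronidase that removes glucuronic acid, fell from 1768 ± 29.8 to 1251 ± 18.7 (-0.50, adjusted p = 1.08e-05). HK2, a hexokinase, fell by most (-1.14). The other rise was that of B3GAT3, which attaches glucuronic acid to the linker of proteoglycans (0.41, from 992 ± 15.1 to 1321 ± 14.3).

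Genes of transport and of bilirubin handling were higher or did not pass. Of 9 transporter genes 7 were tested, of which 6 were higher, 0 lower and 1, ABCC4, did not pass (-0.06, adjusted p = 0.628), with a median of 0.56, where 15.6% of all genes were higher and 16.2% lower. ABCC3, which exports glucuronides towards the blood, rose from 3452 ± 233 to 8280 ± 219 (1.26, SE 0.051), ABCC2, which exports bilirubin glucuronides into bile, from 17220 ± 1185 to 35034 ± 10.9 (1.03), and ABCG2 by 1.11. SLCO1B1 and SLCO1B3, carriers that take up bilirubin and its glucuronides, had at most 2 reads per library and were not tested. Of 7 genes of bilirubin formation and binding, 5 were higher, 0 lower and 2 did not pass, with a median of 0.54, beside the same 15.6% and 16.2%. The heme oxygenase HMOX1 rose from 1243 ± 57.5 to 3075 ± 169 (1.31) and the glutathione transferase GSTA1, which binds bilirubin, by 0.95, while ALB changed by -0.02 (adjusted p = 0.726) and FABP1 by -0.05 (adjusted p = 0.709).

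Sulfotransferases, which conjugate many of the same phenols and steroids, served as a second conjugation pathway. The list also held PAPSS1 and PAPSS2, which make the sulfate donor. Of its 11 tested genes 4 were higher, all of them sulfotransferases, 1 was lower, which was PAPSS1, and 6 did not pass, with a median of 0.22, where 15.6% of all genes were higher and 16.2% lower. The cholesterol sulfotransferase SULT2B1 (3.58), with 3 reads in each DMSO library and 57 and 41 in AMF, and the steroid sulfotransferase SULT2A1 (0.93, from 1548 ± 179.9 to 2934 ± 68.1) rose by most. PAPSS1 fell from 2423 ± 30.9 to 1508 ± 68.9 (-0.68, SE 0.0566, adjusted p = 3.72e-07).

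**Figure D4:**
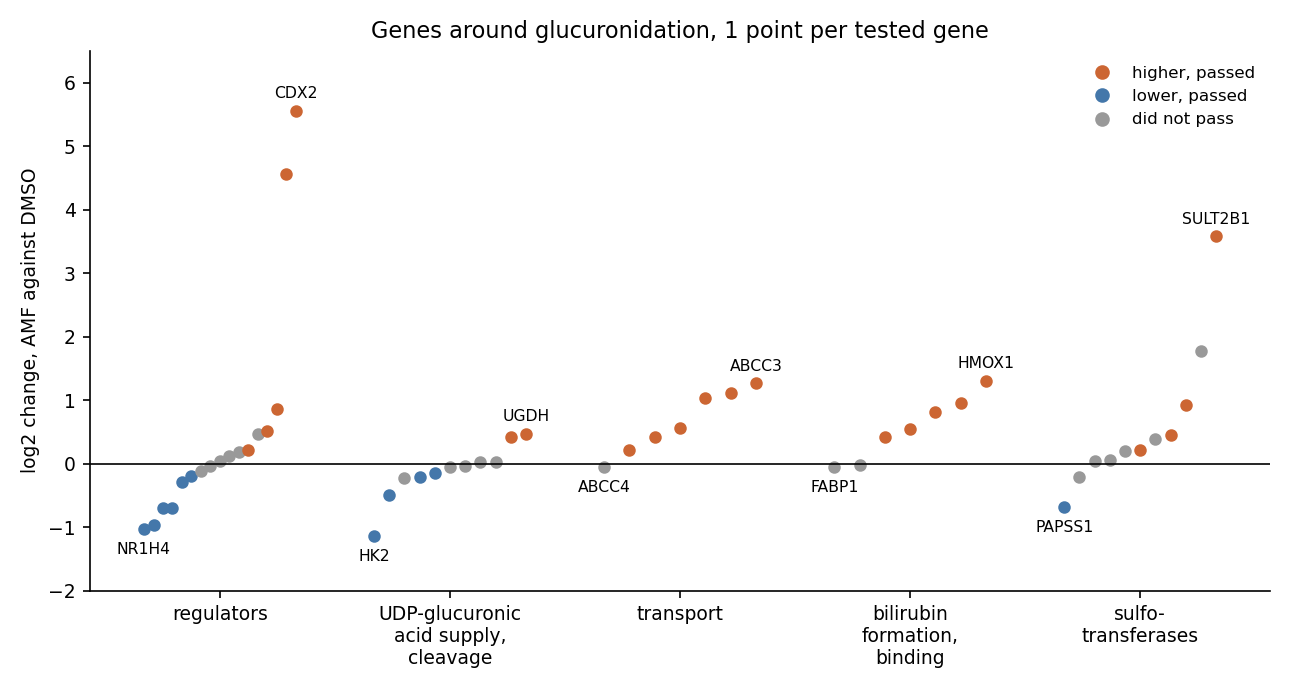
Log2 change of AMF against DMSO for each tested gene of 5 lists around glucuronidation, ordered by size within a list, with orange points higher, blue points lower and grey points not passed. The transport and bilirubin lists hold no blue point, whereas the regulator list has 5 orange and 6 blue points.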

How the data were processed

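Per the labels' protocols, poly(A)-selected RNA was made into non-directional libraries. The submitters' processing notes name STAR 2.7.0, featureCounts and hg19. The annotation is not given in the sources used here, nor is the normalization. The deposited values were on a log2 scale with a lowest value of 6.01 in each library. Their form is that of a variance-stabilizing transformation, which was read from the values, and inverting it gave normalized counts of which 100% were whole reads within 0.01. The size factors recovered in this way, 0.971 to 1.08, equalled in each library the median of ratios computed from the recovered reads. No column of another sample was present (0 columns).

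The test was limma-trend (limma 3.58.1, R 4.3.3) on log2(normalized count + 1) for genes with a mean of at least 1, with the group as sole term and Benjamini-Hochberg adjustment. The deposited unit was log2, so no count model was used as the main test. The added count of 1 makes the fold changes of low genes too small. The smallest exact permutation p for 2 libraries against 2 is 0.333.

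The genes and lists were chosen with earlier results of these data known. Named were all UGT genes with a row, the regulators AHR, NFE2L2, NR1I2, NR1I3 and HNF4A, the targets CYP1A1, CYP1A2 and NQO1, the 4 closest profiles to UGT1A1 and UGT2B4, the markers, and the 2 largest rises and falls per list with a mean of at least 10. ABCC2, ABCC4, FABP1, SLCO1B1 and SLCO1B3 fall outside this rule and were named after their values were seen. Some listed genes are not reported here. Promoters came from RefSeq (GRCh38.p14) and exons and transcripts from GENCODE release 29 (GRCh38). Both differ from hg19, so no coordinates were joined to the deposited table.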

Additional observations from a re-analysis of the deposited data

How the results depend on the processing

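Alternatives were run for the 2 counts of calls and for the changes of the 9 tested UGT genes and UGT2A3, none of which changed sign, and not for the other gene lists, the markers or the shares. Against 7578 genes and 7 of the UGT genes called, limma-trend without 1 library called 0 to 3531 genes and 0 to 5 of the UGT genes. Voom without 1 library, added after seeing the data, called 1315 to 6776 and 3 to 6. Without either AMF library limma-trend had 0.995 and 1 prior degrees of freedom, against 11.9, and the lone AMF library was assumed to vary like the DMSO pair. Voom without either DMSO library, and the replicate block, had infinite prior degrees of freedom, so their p-values treat the spread as known. With the replicate block 8157 genes and 8 of the UGT genes passed, UGT1A6 being added, and no other UGT call changed. Libraries of the same replicate number showed no shared shift (r = 0.0238 between the deviations of replicate 1 in AMF and in DMSO over 11137 genes). Whether they were prepared as pairs cannot be decided from this. A pseudocount of 0.1, no filter, voom, library totals as scaling (which moved the median of all genes by 0.02), the deposited log2 values and an adjusted p under 0.01 called 7 or 8 of the UGT genes, and a mean of at least 10 called 6. Over the alternatives the change of UGT1A1 ranged from 2.67 to 3.56, of UGT1A3 from 1.26 to 3.14, of UGT1A4 from 0.53 to 6.47, of UGT1A9 from 0.58 to 6.74, of UGT2B4 from -1.96 to -1.05, of UGT2B7 from 0.64 to 0.79, of UGT2B10 from -0.29 to -0.24, of UGT1A6 from 0.32 to 1.59 and of UGT2B11 from 0.01 to 1.07. For each of these genes except UGT2B11 the value nearest to 0 was that on the deposited log2 scale, which compresses low counts. Depth limits UGT1A4, UGT1A9 and UGT2B15, whose DMSO reads lie under 3.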
